A study of Mus musculus with 12 samples.

Results

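Complexes II to V of the mitochondrial respiratory chain were followed at the RNA level through 47 nuclear genes, out of 22180 genes that had a probe set naming 1 gene only. A gene was included where its symbol was Sdha, Sdhb, Sdhc, Sdhd, Cyc1 or Cycs, or began with Uqcr, Cox4 to Cox8 or Atp5, pseudogenes left out. These were 4 genes of complex II, 8 of complex III, Cycs, 17 of complex IV and 17 of complex V. In all 57 probe sets matched, and for the 7 genes with more than 1 the probe set with the highest mean over the 12 arrays was used. Uqcr10 and Cox6c, 2 further genes of the pattern, sit only on probe sets that name several genes and were not analysed here.

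The RNA came from mouse embryonic fibroblasts, which are cultured from the connective tissue of embryos, either wild type (WT) or without Gdap1 (Gdap1-null, here KO). The GDAP1 protein sits in the outer membrane of mitochondria and has a role in their fission. Each genotype was sampled before reprogramming (day 0) and at day 4 of reprogramming by the 4 factors Oct4, Sox2, Klf4 and c-Myc (OSKM), with 3 one-colour Affymetrix arrays in each of the 4 groups and no other agent named. All cells grew in DMEM with serum. The treatment label is the same for every array and names both a mock and an OSKM transduction, so it does not tell which of these the day 0 cells received. The 4 factors, the virus and the days in culture therefore cannot be told apart in a change from day 0 to day 4. The strain and the number of embryos or lines behind each genotype are not stated in the labels.

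Complex II oxidises succinate and passes its electrons to ubiquinone, complex III passes them on to cytochrome c, and complex IV uses them to reduce oxygen to water. Complexes III and IV pump protons as they work, and complex V, the ATP synthase, lets the protons back through a ring of c subunits and makes ATP. Complex II is encoded wholly in the nucleus, whereas complexes III to V combine nuclear subunits with a few encoded by mitochondrial DNA, and several complex IV subunits have paralogs used in muscle, lung or testis. Fibroblasts rely on this chain for much of their ATP, and cells that become pluripotent are known to shift towards glycolysis.

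Levels are log2 values of the deposited table, and differences are differences of group means on that scale. Every difference rests on n = 3 arrays per group and carries the standard error (SE) of a linear model fitted with limma to all 12 arrays. A gene is said to rise, fall or change where its Benjamini-Hochberg adjusted p over the 22180 genes was under 0.05. The labels do not say that arrays of a group came from separate cultures or animals, so the p-values measure the spread between these arrays, which may be technical. Array medians lay between 5.22 and 5.32, and the mean correlation of an array with the others of its group between 0.987, for WT day 4 array 1, and 0.997. No batch is named in the labels, and a batch that follows the groups cannot be told apart from them. Gdap1 itself read 3.30, 3.24 and 3.04 on the WT day 0 arrays and 2.82, 3.02 and 3.15 on the WT day 4 arrays. In KO cells Gdap1 read 3.10, 2.97 and 3.28 on the day 0 arrays and 3.21, 2.98 and 3.28 on the day 4 arrays. On every array it lay below the 25th percentile of all genes (3.75), so it checks no label. The 9 fibroblast markers had a mean level of 10.85 to 11.27 on every array, but single ones moved. By day 4, 5 fell and 1 rose in WT cells, with Thy1 at -1.03, Pdgfrb at -1.03 and Dcn at 1.68, and 4 fell and 1 rose in KO cells. Between the genotypes, Dcn and Pdgfra were higher in KO cells at day 0 (0.75 and 0.71). At day 4 Thy1 and Pdgfra were higher (0.66 and 0.56) and Col3a1 was lower (-0.47). Of 11 macrophage markers, 10 were lower in KO cells at day 0 (median difference over the 11 of -1.50) and 10 at day 4 (-1.63). Their mean level was 6.74 to 6.87 on WT day 0 arrays, 6.63 to 7.26 on WT day 4 arrays, 5.13 to 5.33 on KO day 0 arrays and 5.23 to 5.30 on KO day 4 arrays. In bulk RNA, fewer cells of a type and less RNA per cell cannot be told apart.

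Promoters are shown for 4 members that changed in different ways by day 4 and whose upstream bases hold a match to factors known to drive respiratory genes. Sdhd rose in both genotypes, Cox6a1 fell in KO cells, Atp5g2 rose in WT cells and Atp5g3 fell in KO cells. The stretches are RefSeq sequence of mouse build GRCm38.p6, read 5′ to 3′ on the minus strand, which is the strand of all 4 genes, and each ends at the last base before a transcript start. They lie at chr9:50603850-50603929 for Sdhd, chr5:115348959-115349128 for Cox6a1, chr15:102671048-102671147 for Atp5g2 and chr2:73911327-73911426 for Atp5g3. The stretches of Sdhd, Cox6a1 and Atp5g2 lie just outside the gene, and that of Atp5g3 lies inside the RefSeq span of the gene, before the start of a shorter transcript. Capitals mark the matches, which are NRF1 and ETS letters in Sdhd and Cox6a1, NRF1 letters in Atp5g2 and ERR letters in Atp5g3. The ETS and ERR matches lie on the opposite strand, so the stretches show their reverse complement.
Sdhd: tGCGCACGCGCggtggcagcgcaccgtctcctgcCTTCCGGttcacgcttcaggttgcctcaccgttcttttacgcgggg
Cox6a1: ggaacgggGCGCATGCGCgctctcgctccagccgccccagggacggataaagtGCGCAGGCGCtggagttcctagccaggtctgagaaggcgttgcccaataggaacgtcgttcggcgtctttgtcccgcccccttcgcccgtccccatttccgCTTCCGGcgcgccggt
Atp5g2: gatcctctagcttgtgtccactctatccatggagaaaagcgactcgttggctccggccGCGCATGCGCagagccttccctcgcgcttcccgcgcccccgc
Atp5g3: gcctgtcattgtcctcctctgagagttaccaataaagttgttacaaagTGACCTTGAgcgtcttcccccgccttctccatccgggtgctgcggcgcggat

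The 250 bases before each start were searched on both strands for 5 motifs in 39 promoters of 36 members, the members that the RefSeq table holds, and in all 32851 promoters of that table. NRF1 letters, GCGCA then any base then GCGC, stood in 7 member promoters (17.9%, against 3.74% of all promoters), those of Sdha, Sdhd, Cox6a1, Atp5c1, Atp5g2, Atp5h and Atp5k. ETS letters, CCGGAAG, the core bound by the GABP factor, stood in 9 (23.1%, against 6.91%), those of Sdhd, Uqcrh, Uqcr11, Cox6a1, Cox6b1, Atp5e, Atp5h, Atp5j and Atp5l. ERR letters, TCAAGGTCA, stood only before Atp5g3 (0.387% of all promoters) and YY1 letters, AAGATGGC, only before Atp5j (1.56%). The E-box CACGTG stood in 4 (10.3%, against 6.02%), those of Atp5g1, Atp5g3, Atp5l and Atp5pb. No matches of different motifs overlapped in a member promoter, and 16 members held any of the 5. All 16 are genes of the minus strand. Whether the search covered promoters of plus-strand members equally was not checked, so an absence of matches in those members is not shown. A match is a description of letters and says nothing of binding, and among the 7 members with NRF1 letters some rose, some fell and some did not pass the test.

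At day 4, KO cells had less RNA for 19 of the 47 members than WT cells and more for 2. The 19 covered every complex and included Uqcrq, Cyc1 and Uqcrc1 of complex III, the iron-sulfur subunit Sdhb of complex II, Cox7a2 and Cox4i1 of complex IV, cytochrome c and 7 subunits of the ATP synthase. The differences were modest, from -0.22 for Atp5b to -0.63 for Uqcrq, 1.55-fold lower. The 2 higher members were Cox4i2, the lung isoform of complex IV subunit 4 (1.24, 2.36-fold), and Cox7a2l, a factor that joins complexes III and IV (0.45). Over all 22180 genes, 20.7% passed in this comparison, 8.34% higher and 12.4% lower, whereas 44.7% of the members passed, 40.4% lower. Among the 11090 genes over the median level of 5.28, which 41 members exceed, 33.7% passed and 21.8% were lower. The median difference over the members was -0.14 against 0.00 over all genes, and 13 of the 47 differences were above 0. Of the 21 calls, 10 held under every alternative tried, those of Sdhb, Cyc1, Uqcrq, Uqcrc1, Cox4i1, Cox4i2, Cox7a2, Cox7a2l, Cox8b and Atp5j. When only the KO day 4 and WT day 4 arrays were fitted, 10 members passed, and the calls over all genes went from 4596 to 1923 of 22180. Macrophage and fibroblast markers differed in the same comparison as given above, and their part in these differences was not tested.

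**Figure D1:**
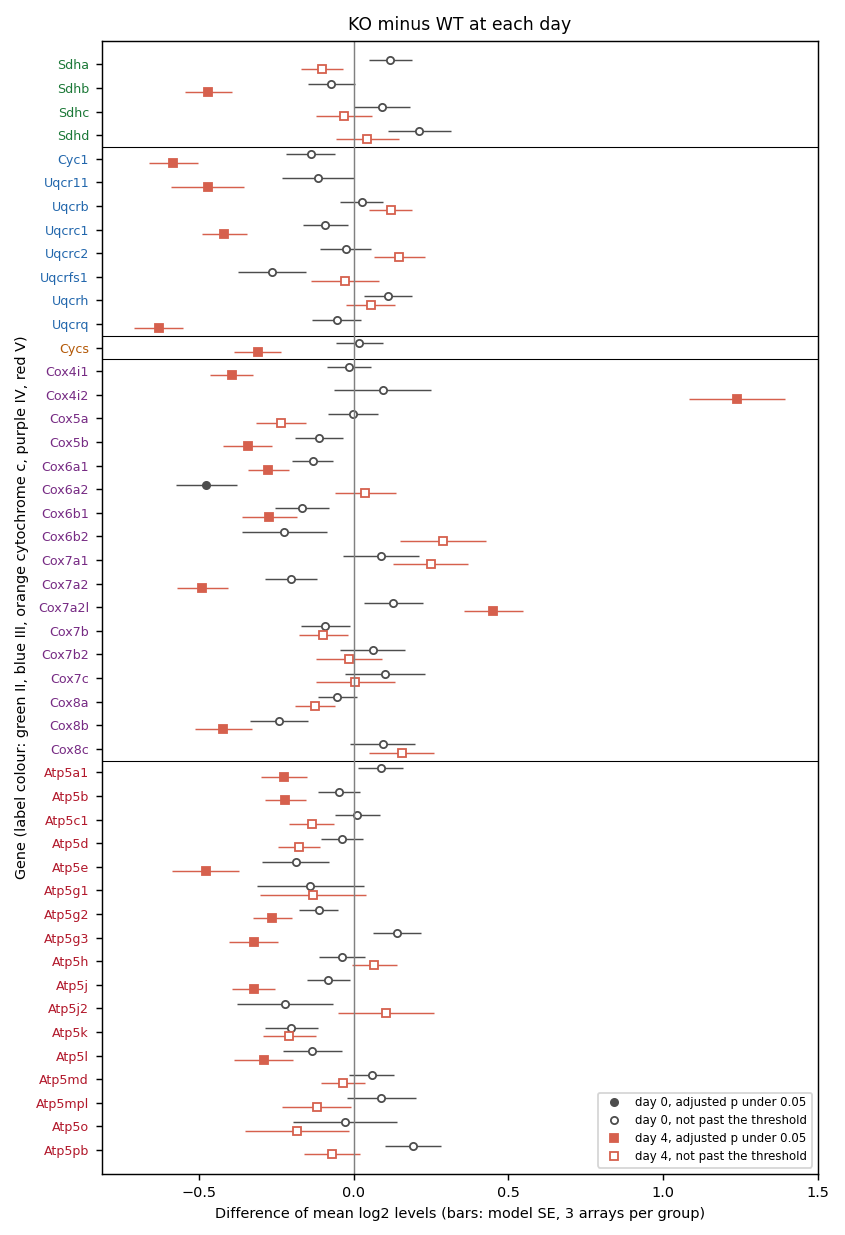
KO minus WT difference of mean log2 levels for each of the 47 genes at day 0 and at day 4, with the model SE as bars, filled symbols marking an adjusted p under 0.05 and label colours marking the complex. At day 0 only Cox6a2 is filled, and at day 4 19 genes lie left of 0 and 2, Cox4i2 and Cox7a2l, right of it with filled symbols.

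Before reprogramming the genotypes differed in 1 member, Cox6a2, the heart and skeletal muscle isoform of subunit 6a, which was lower in KO cells (-0.48 ± 0.0982 SE, adjusted p = 0.0114). Over all genes 5.6% passed at day 0, 2.48% higher and 3.12% lower. The median member difference was -0.04. The macrophage marker differences at day 0 are given above, and their part in the Cox6a2 difference was not tested. The Cox6a2 call did not hold with array 1 of WT day 0 left out (adjusted p = 0.0577).

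From day 0 to day 4, 9 members changed in WT cells, 7 up and 2 down. The rises were in Cox6b2, Sdhd, Atp5c1, Atp5a1, Uqcrh, Cox7b and Atp5g2, and the falls in Cox6a2 and Uqcrq. Over all genes 22.9% passed in WT cells, 11.1% higher and 11.7% lower, against 19.1% of the members, a share near that of all genes. The share among genes over the median level was not computed for this comparison. The median change was 0.04 over the members and -0.01 over all genes. Centring the arrays on their medians left 4 rises and 3 falls and a member median of -0.01.

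In KO cells 21 members changed by day 4, 6 up and 15 down. Cox6b2, Cox4i2, Cox7a2l, Uqcrc2, Sdhd and Cox7b rose. The falls were in Uqcrq, Cycs, Sdhb, Cyc1, Uqcr11, Cox4i1, Cox5b, Cox6a1, Cox7a2, Atp5b, Atp5g3, Atp5j, Atp5l, Atp5md and Atp5pb. Over all genes 30.8% passed, 13.8% higher and 16.9% lower, against 44.7% of the members, 31.9% lower, and the median change was -0.09 over the members and -0.01 over all genes. Among genes over the median level 49.7% passed and 29.1% fell, so against these the members passed less often and their share of falls was near. The direction of the calls moved with the scaling, since quantile normalization gave 9 rises and 8 falls and centring on array medians 4 rises and 21 falls. Without KO day 0 array 1, 2 or 3 the calls numbered 13, 12 and 11, and without KO day 4 array 3 they numbered 12. The KO change and the day 4 difference between genotypes share the KO day 4 arrays, so the values of each are given side by side below and are not independent of each other.

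**Figure D2:**
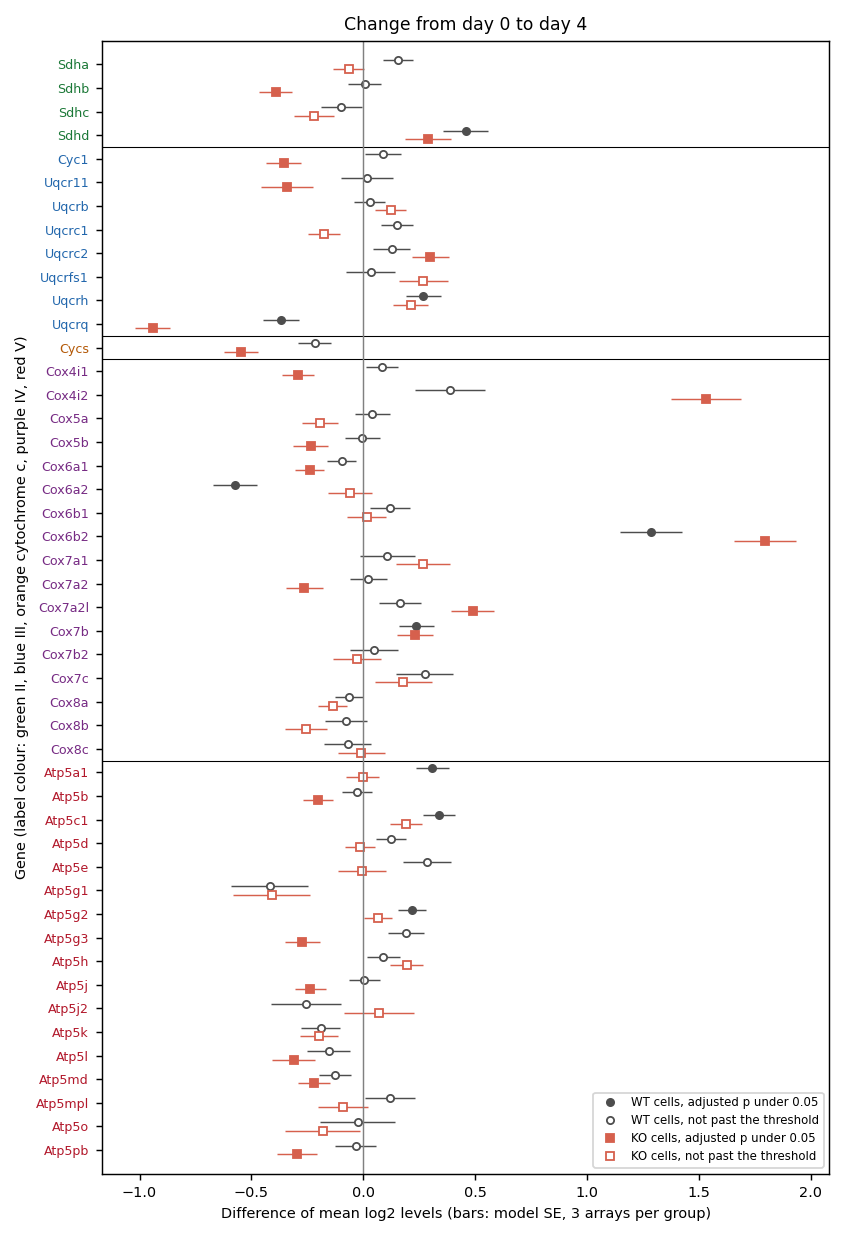
Change of mean log2 level from day 0 to day 4 for each of the 47 genes in WT cells and KO cells, with the model SE as bars, filled symbols marking an adjusted p under 0.05 and label colours marking the complex. Cox6b2 lies farthest right in both genotypes (1.28 and 1.80), and Uqcrq farthest left in KO cells (-0.94).

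**Figure D3:**
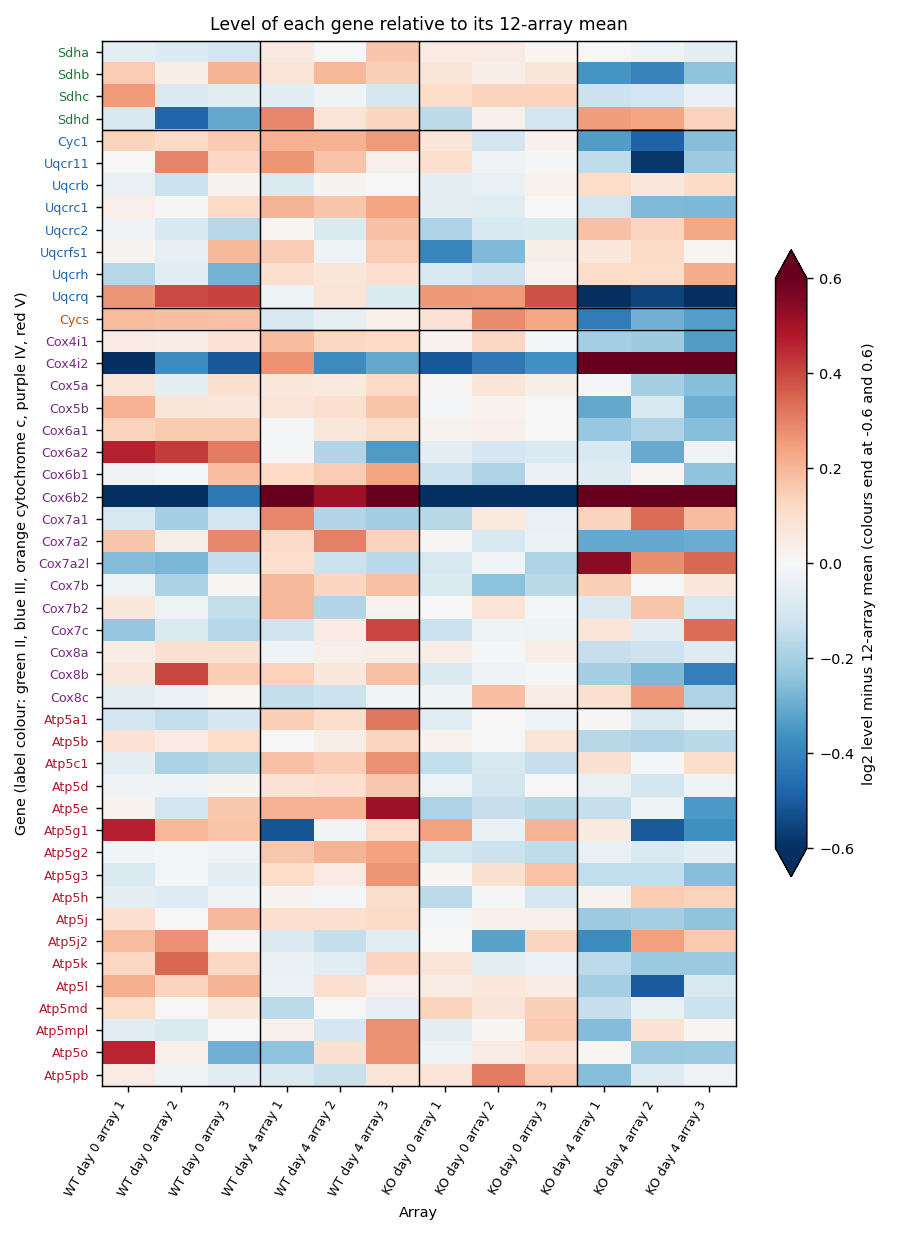
Log2 level of each of the 47 genes on each of the 12 arrays relative to the gene's 12-array mean, genes ordered by complex and colours ending at -0.6 and 0.6. All KO day 4 arrays are below the mean for Uqcrq, Cyc1, Sdhb and Cycs and above it for Cox4i2 and Cox7a2l.

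In complex II, the succinate dehydrogenase of the citric acid cycle, Sdhb fell and Sdhd rose in KO cells, and Sdha and Sdhc did not pass. Sdhb, the iron-sulfur subunit that carries electrons from the flavin to ubiquinone, read 7.32, 7.20 and 7.36 on the WT day 0 arrays and 7.24, 7.36 and 7.30 on the WT day 4 arrays. In KO cells Sdhb read 7.23, 7.20 and 7.24 on the day 0 arrays and 6.81, 6.76 and 6.92 on the day 4 arrays. All 3 KO day 4 arrays lay below the other 9 arrays. Sdhb fell in KO cells by day 4 (-0.39 ± 0.075 SE, adjusted p = 0.00145) and did not pass in WT cells (0.01 ± 0.075 SE, adjusted p = 0.975). At day 4 it was lower in KO than in WT cells (-0.47 ± 0.075 SE, adjusted p = 0.00105), and at day 0 the difference was -0.07 (95% interval -0.23 to 0.09). Sdhd, a membrane anchor, read 9.04, 8.65 and 8.83 on the WT day 0 arrays and 9.42, 9.21 and 9.26 on the WT day 4 arrays. In KO cells Sdhd read 8.97, 9.16 and 9.02 on the day 0 arrays and 9.38, 9.37 and 9.27 on the day 4 arrays. The day 4 arrays of each genotype lay above its day 0 arrays. Sdhd rose in WT cells (0.46 ± 0.102 SE, adjusted p = 0.00515) and in KO cells (0.29 ± 0.102 SE, adjusted p = 0.0461), and the genotypes differed by 0.04 at day 4 (adjusted p = 0.808). Its KO call did not hold with array 3 of WT day 0, array 2 or 3 of WT day 4, array 1 or 3 of KO day 0 or any 1 array of KO day 4 left out (adjusted p 0.0504 to 0.147). It was also lost with arrays centred on their medians, array weights or a block for the replicate number (adjusted p = 0.105, 0.0504 and 0.0525). Sdha, the flavin subunit that oxidises succinate, read 9.72, 9.69 and 9.66 on the WT day 0 arrays and 9.82, 9.77 and 9.94 on the WT day 4 arrays. In KO cells Sdha read 9.82, 9.82 and 9.78 on the day 0 arrays and 9.77, 9.75 and 9.71 on the day 4 arrays. None of its comparisons passed, the WT change being 0.15 (adjusted p = 0.136) and the KO change -0.07 (adjusted p = 0.523). Sdhc, the other membrane anchor, read 8.83, 8.49 and 8.51 on the WT day 0 arrays and 8.51, 8.56 and 8.47 on the WT day 4 arrays. In KO cells Sdhc read 8.69, 8.71 and 8.71 on the day 0 arrays and 8.45, 8.46 and 8.54 on the day 4 arrays. Its KO arrays of the 2 days did not overlap, but the change of -0.22 did not pass (adjusted p = 0.0859), and on WT day 0 array 1 it read higher than on the other 11 arrays.

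In complex III, which moves electrons from ubiquinol to cytochrome c, 4 of 8 genes were lower in KO than in WT cells at day 4 and none higher. Over all genes 12.4% were lower, and among genes over the median level 21.8%. Uqcrq, a small subunit near cytochrome b, read 6.14, 6.26 and 6.28 on the WT day 0 arrays and 5.84, 5.95 and 5.79 on the WT day 4 arrays. In KO cells Uqcrq read 6.13, 6.13 and 6.25 on the day 0 arrays and 5.17, 5.32 and 5.20 on the day 4 arrays. The 3 KO day 4 arrays lay lowest, the WT day 4 arrays next, and the day 0 arrays of both genotypes overlapped above them. Uqcrq fell in WT cells (-0.37 ± 0.079 SE, adjusted p = 0.0042) and in KO cells (-0.94 ± 0.079 SE, adjusted p = 3.28e-06), and was lower in KO cells at day 4 (-0.63 ± 0.079 SE, adjusted p = 0.000253). The KO fall was 1.92-fold. Cyc1, the heme-bearing cytochrome of the complex, read 8.88, 8.87 and 8.90 on the WT day 0 arrays and 8.96, 8.96 and 8.999 on the WT day 4 arrays. In KO cells Cyc1 read 8.82, 8.64 and 8.77 on the day 0 arrays and 8.41, 8.26 and 8.49 on the day 4 arrays. KO day 4 arrays lay below all others and WT day 4 arrays above all others. Cyc1 fell in KO cells (-0.36 ± 0.0789 SE, adjusted p = 0.00384) and was lower than in WT cells at day 4 (-0.58 ± 0.0789 SE, adjusted p = 0.000391), while the WT change of 0.09 did not pass (adjusted p = 0.513). Uqcrc1, a core protein on the matrix side, read 9.91, 9.89 and 9.999 on the WT day 0 arrays and 10.09, 10.05 and 10.12 on the WT day 4 arrays. In KO cells Uqcrc1 read 9.83, 9.81 and 9.88 on the day 0 arrays and 9.77, 9.61 and 9.61 on the day 4 arrays. Its day 4 arrays did not overlap between the genotypes, and the day 4 difference passed (-0.42 ± 0.0724 SE, adjusted p = 0.00174), whereas neither change over the days did (0.15 in WT cells and -0.18 in KO cells). Uqcrc2, the partner core protein, read 10.39, 10.29 and 10.56 on the WT day 4 arrays, 10.19, 10.29 and 10.30 on the KO day 0 arrays and 10.56, 10.51 and 10.61 on the KO day 4 arrays. The day 4 arrays of the genotypes overlapped. Uqcrc2 rose in KO cells (0.30 ± 0.0825 SE, adjusted p = 0.0142), a call that did not hold with array 1 of KO day 0 or array 3 of KO day 4 left out (adjusted p 0.0511 to 0.0603).

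Among the other small subunits, Uqcr11 fell in KO cells (-0.34 ± 0.117 SE, adjusted p = 0.0426) and was lower in KO than in WT cells at day 4 (-0.47 ± 0.117 SE, adjusted p = 0.0129). KO day 4 array 2 gave its lowest value (6.61, 6.18 and 6.55 on the 3 arrays), and the KO change did not pass with array 3 of WT day 0, array 2 of WT day 4, any 1 array of KO day 0 or array 2 of KO day 4 left out (adjusted p 0.0526 to 0.16). With KO day 4 array 2 and WT day 4 array 1 both left out, the day 4 difference did not pass either (adjusted p = 0.0695). Uqcrh, the hinge protein that helps cytochrome c dock, read 7.56, 7.67 and 7.45 on the WT day 0 arrays and 7.84, 7.81 and 7.84 on the WT day 4 arrays. In KO cells Uqcrh read 7.64, 7.61 and 7.76 on the day 0 arrays and 7.84, 7.85 and 7.96 on the day 4 arrays. In each genotype its day 4 arrays lay above its day 0 arrays. It rose in WT cells (0.27 ± 0.0783 SE, adjusted p = 0.0252), and its KO change of 0.21 did not pass (adjusted p = 0.057). The WT call did not hold with array 1 or 3 of WT day 0 or array 3 of WT day 4 left out (adjusted p 0.0627 to 0.108). It was also lost with arrays centred on their medians (adjusted p = 0.0581) and with the WT arrays fitted alone (adjusted p = 0.0648). Uqcrb and the Rieske iron-sulfur protein Uqcrfs1 passed in no comparison. Uqcrfs1 differed by -0.26 between the genotypes at day 0 (adjusted p = 0.238) and by -0.03 at day 4 (adjusted p = 0.89).

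Cycs, the somatic cytochrome c that carries electrons from complex III to complex IV, read 9.29, 9.29 and 9.28 on the WT day 0 arrays and 9.02, 9.06 and 9.14 on the WT day 4 arrays. In KO cells Cycs read 9.19, 9.39 and 9.34 on the day 0 arrays and 8.69, 8.82 and 8.77 on the day 4 arrays. Day 4 arrays lay below day 0 arrays in both genotypes, and the KO day 4 arrays lowest of all. It fell in KO cells (-0.55 ± 0.0756 SE, adjusted p = 0.000133), the WT change of -0.22 missed the threshold (adjusted p = 0.0561), and it was lower in KO than in WT cells at day 4 (-0.31 ± 0.0756 SE, adjusted p = 0.0118). The day 4 difference did not hold with array 3 of WT day 4 left out (adjusted p = 0.0505) or with the day 4 arrays fitted alone (adjusted p = 0.0683). All 5 Cycs probe sets were lower in KO cells at day 4, by -0.15 to -0.56, a pair of them with identical values. The difference of -0.15 did not pass (adjusted p = 0.19 over all probe sets). On the same scale, WT falls of -0.34 and -0.24 on other probe sets passed (adjusted p = 0.0119 and 0.0361). The WT change of the identical pair, -0.15, did not (adjusted p = 0.351). The KO change minus the WT change passed for that pair (-0.61, adjusted p = 0.0315) and not for the rest. Cycs has processed pseudogenes in the mouse genome, and whether they share these probes was not tested. The testis form, Cyct, did not pass in any comparison.

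**Figure D4:**
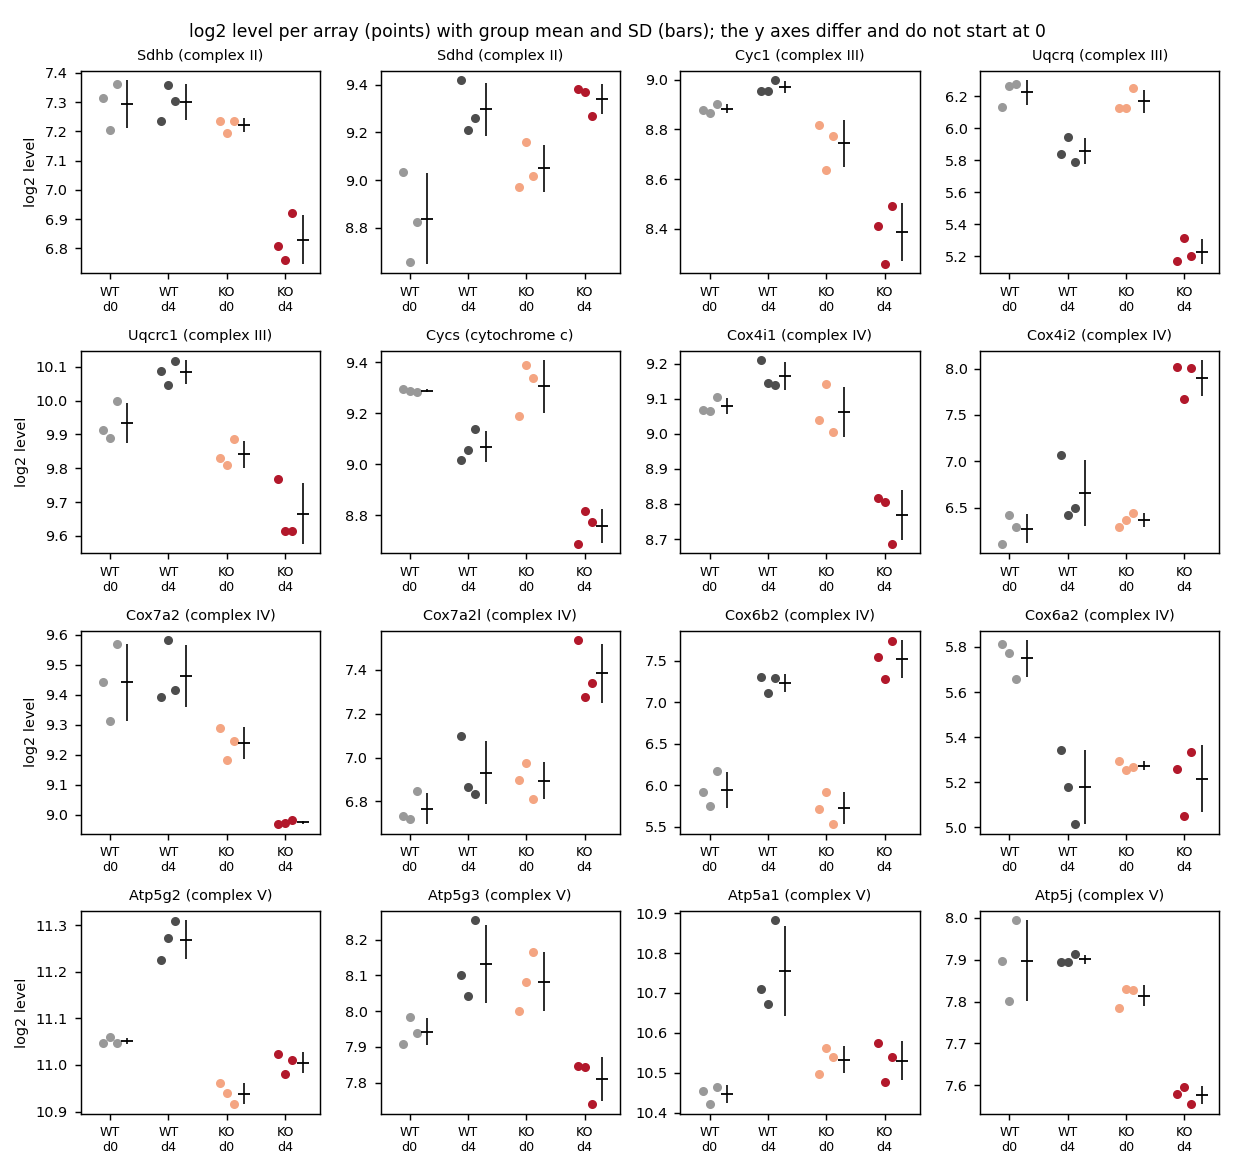
Log2 level of 16 members on each of the 12 arrays (points) with the group mean and SD (bars), by genotype and day, on y axes that differ between panels and do not start at 0. The 3 KO day 4 points lie below the points of the other groups for Sdhb, Cyc1, Uqcrq, Uqcrc1, Cycs, Cox4i1, Cox7a2, Atp5g3 and Atp5j, and above them for Cox4i2 and Cox7a2l.

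In complex IV, cytochrome c oxidase, 6 of 17 genes were lower in KO than in WT cells at day 4 and 2 higher. These were 35.3% and 11.8%, against 12.4% and 8.34% of all genes and 21.8% lower among genes over the median level. Cox4i1, the widely used form of the subunit that surrounds the catalytic core, read 9.07, 9.06 and 9.10 on the WT day 0 arrays and 9.21, 9.14 and 9.14 on the WT day 4 arrays. In KO cells Cox4i1 read 9.04, 9.14 and 9.01 on the day 0 arrays and 8.82, 8.80 and 8.69 on the day 4 arrays. All 3 KO day 4 arrays lay below the rest. Cox4i1 fell in KO cells (-0.29 ± 0.0709 SE, adjusted p = 0.00667) and was lower there than in WT cells at day 4 (-0.40 ± 0.0709 SE, adjusted p = 0.00215). Its paralog Cox4i2, known from lung and from cells short of oxygen, read 6.11, 6.42 and 6.29 on the WT day 0 arrays and 7.07, 6.42 and 6.49 on the WT day 4 arrays. In KO cells Cox4i2 read 6.29, 6.37 and 6.44 on the day 0 arrays and 8.01, 7.68 and 8.01 on the day 4 arrays. The KO day 4 arrays lay above all others, and WT day 4 array 1 stood above the other WT arrays. Cox4i2 rose 2.89-fold in KO cells (1.53 ± 0.156 SE, adjusted p = 1.46e-05) and did not pass in WT cells (0.39 ± 0.156 SE, adjusted p = 0.0996). At day 4 it was higher in KO than in WT cells (1.24 ± 0.156 SE, adjusted p = 0.000263). The paralogs of subunit 4 thus moved in opposite directions in KO cells, each on its own probe set. Both calls of each held under every alternative tried.

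Cox6a1, the widely used form of subunit 6a whose promoter with NRF1 and ETS letters is shown above, read 12.11, 12.13 and 12.13 on the WT day 0 arrays and 11.96, 12.04 and 12.08 on the WT day 4 arrays. In KO cells Cox6a1 read 11.998, 12.01 and 11.98 on the day 0 arrays and 11.75, 11.79 and 11.72 on the day 4 arrays. The KO day 4 group lay lowest. Cox6a1 fell in KO cells (-0.24 ± 0.0654 SE, adjusted p = 0.0136) and was lower than in WT cells at day 4 (-0.28 ± 0.0654 SE, adjusted p = 0.0102), the latter not with those 6 arrays fitted alone (adjusted p = 0.0848). Its muscle paralog Cox6a2 read 5.81, 5.78 and 5.66 on the WT day 0 arrays and 5.34, 5.18 and 5.01 on the WT day 4 arrays. In KO cells Cox6a2 read 5.30, 5.25 and 5.27 on the day 0 arrays and 5.26, 5.05 and 5.33 on the day 4 arrays. The WT day 0 arrays lay above the other 9, which overlapped. Cox6a2 fell in WT cells (-0.57 ± 0.0982 SE, adjusted p = 0.000911), while in KO cells, where it was already lower at day 0, the change was -0.06 (adjusted p = 0.713). Of 9 skeletal muscle markers, Des and Acta1 fell in WT cells by day 4 (-1.74 and -2.12) and in KO cells (-1.45 and -1.45), the other 7 did not pass, and at day 0 none of the 9 differed between the genotypes. Of 5 cardiac markers, Tnnt2 was lower in KO cells at day 0 (-1.17). By day 4 Actc1 fell in WT cells (-0.35) and in KO cells (-0.41), Tnni3 rose in KO cells (0.50), and none of the 5 passed between the genotypes at day 4. The part of the muscle markers in the Cox6a2 differences was not tested.

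Cox6b2, the testis form of subunit 6b on the intermembrane side, read 5.92, 5.75 and 6.18 on the WT day 0 arrays and 7.30, 7.11 and 7.28 on the WT day 4 arrays. In KO cells Cox6b2 read 5.72, 5.92 and 5.53 on the day 0 arrays and 7.54, 7.28 and 7.73 on the day 4 arrays. Day 4 arrays lay above day 0 arrays in both genotypes without overlap. It rose 2.44-fold in WT cells (1.28 ± 0.139 SE, adjusted p = 2.7e-05) and 3.47-fold in KO cells (1.80 ± 0.139 SE, adjusted p = 1.79e-06), the member with the smallest p in each. The day 4 levels of the genotypes overlapped (0.29, adjusted p = 0.168). Its widely used paralog Cox6b1 read 8.42, 8.43 and 8.62 on the WT day 0 arrays and 8.56, 8.60 and 8.68 on the WT day 4 arrays. In KO cells Cox6b1 read 8.31, 8.26 and 8.40 on the day 0 arrays and 8.36, 8.45 and 8.20 on the day 4 arrays. It did not pass over the days (0.12 in WT cells and 0.01 in KO cells) and was lower in KO than in WT cells at day 4 (-0.27 ± 0.0885 SE, adjusted p = 0.0454). That call did not hold with array 1 or 2 of WT day 0, array 2 or 3 of WT day 4, any 1 array of KO day 0 or array 1 or 3 of KO day 4 left out (adjusted p 0.0566 to 0.161).

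The subunit 7a family split in KO cells. Cox7a2, the form of most tissues, read 9.44, 9.31 and 9.57 on the WT day 0 arrays and 9.39, 9.58 and 9.42 on the WT day 4 arrays. In KO cells Cox7a2 read 9.29, 9.18 and 9.25 on the day 0 arrays and 8.97, 8.97 and 8.98 on the day 4 arrays. The KO day 4 arrays lay close together and below all others. It fell in KO cells (-0.26 ± 0.0829 SE, adjusted p = 0.0277), which did not hold with array 1 or 3 of KO day 0 or any 1 array of KO day 4 left out (adjusted p 0.0564 to 0.0948), and was lower than in WT cells at day 4 (-0.49 ± 0.0829 SE, adjusted p = 0.00155). Cox7a2l, a related protein that sits between complexes III and IV in respirasomes, read 6.73, 6.72 and 6.85 on the WT day 0 arrays and 7.10, 6.87 and 6.83 on the WT day 4 arrays. In KO cells Cox7a2l read 6.90, 6.98 and 6.81 on the day 0 arrays and 7.53, 7.27 and 7.34 on the day 4 arrays. Its KO day 4 arrays lay above all other arrays. It rose in KO cells (0.49 ± 0.0955 SE, adjusted p = 0.00169) and was higher than in WT cells at day 4 (0.45 ± 0.0955 SE, adjusted p = 0.00561), while the WT change of 0.16 did not pass (adjusted p = 0.272). Cox7a1, the muscle and brown fat form, read 4.66, 4.56 and 4.65 on the WT day 0 arrays and 5.05, 4.59 and 4.55 on the WT day 4 arrays. In KO cells Cox7a1 read 4.60, 4.82 and 4.72 on the day 0 arrays and 4.89, 5.10 and 4.95 on the day 4 arrays. Among the groups compared only the KO day 0 and KO day 4 arrays did not overlap, and no comparison passed.

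Cox7b, a small structural subunit, read 10.69, 10.53 and 10.73 on the WT day 0 arrays and 10.91, 10.85 and 10.90 on the WT day 4 arrays. In KO cells Cox7b read 10.63, 10.48 and 10.56 on the day 0 arrays and 10.86, 10.72 and 10.78 on the day 4 arrays. Day 4 arrays lay above day 0 arrays in both genotypes. It rose in WT cells (0.24 ± 0.0791 SE, adjusted p = 0.047) and in KO cells (0.23 ± 0.0791 SE, adjusted p = 0.0414). The WT call did not hold with array 1 or 2 of WT day 0, any 1 array of WT day 4, any 1 array of KO day 0 or array 3 of KO day 4 left out (adjusted p 0.0551 to 0.189), and the KO call did not hold with array 1 of WT day 0, array 2 of WT day 4, array 2 or 3 of KO day 0 or array 1 or 3 of KO day 4 left out (adjusted p 0.0501 to 0.147). A second Cox7b probe set, with a 12-array mean of 4.80 against 10.72 for the one used, differed by -0.88 between the genotypes at day 4 (adjusted p = 0.0107 over all probe sets), where the one used differed by -0.10, so the probe sets disagree. Cox7b2, the testis form, read between 2.23 and 2.60 on all arrays and did not pass. Cox8a, the widely used form of subunit 8, read 11.39, 11.44 and 11.44 on the WT day 0 arrays and 11.32, 11.37 and 11.38 on the WT day 4 arrays. In KO cells Cox8a read 11.39, 11.34 and 11.39 on the day 0 arrays and 11.21, 11.22 and 11.27 on the day 4 arrays. Its KO day 4 arrays lay below the others, and the day 4 difference of -0.13 did not pass (adjusted p = 0.197). Cox8b, the muscle and brown fat form, read 4.12, 4.46 and 4.21 on the WT day 0 arrays and 4.20, 4.12 and 4.24 on the WT day 4 arrays. In KO cells Cox8b read 3.98, 4.04 and 4.06 on the day 0 arrays and 3.86, 3.79 and 3.65 on the day 4 arrays. KO day 4 arrays lay lowest, and Cox8b was lower in KO than in WT cells at day 4 (-0.42 ± 0.0935 SE, adjusted p = 0.00732). Its level was low, with a KO day 4 mean of 3.77 close to the 25th percentile of all genes (3.75). It is itself in the list of 7 brown fat markers, of which no other passed in any comparison. Cox8c, the testis form, read between 3.16 and 3.61 and did not pass.

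Of the remaining complex IV genes, Cox5b, the zinc-bearing subunit, fell in KO cells (-0.24 ± 0.0785 SE, adjusted p = 0.0374) and was lower than in WT cells at day 4 (-0.34 ± 0.0785 SE, adjusted p = 0.00855). The KO call did not hold with any 1 array of KO day 0 or array 1 or 3 of KO day 4 left out (adjusted p 0.0819 to 0.122), nor with the average of its 2 probe sets (adjusted p = 0.207). Cox5a had differences of -0.19 in KO cells and -0.24 at day 4 that did not pass (adjusted p = 0.0886 and 0.0544). Cox7c did not pass in any comparison, and its WT day 4 arrays (6.93, 7.11 and 7.46) spread more than its WT day 0 arrays (6.82, 6.97 and 6.88).

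In complex V, 7 of 17 genes were lower in KO than in WT cells at day 4 and none higher, and 15 of the 17 differences were below 0. The 7 are 41.2%, against 12.4% lower over all genes and 21.8% among genes over the median level. The c subunit, which forms the rotating ring, is encoded by 3 genes whose mature protein is the same. Atp5g2, with NRF1 letters in the promoter shown above, read 11.05, 11.06 and 11.05 on the WT day 0 arrays and 11.23, 11.27 and 11.31 on the WT day 4 arrays. In KO cells Atp5g2 read 10.96, 10.94 and 10.92 on the day 0 arrays and 11.02, 10.98 and 11.01 on the day 4 arrays. WT day 4 arrays lay highest and all KO arrays below all WT arrays. It rose in WT cells (0.22 ± 0.0633 SE, adjusted p = 0.0247) and was lower in KO than in WT cells at day 4 (-0.26 ± 0.0633 SE, adjusted p = 0.011), and its other probe set gave -0.27 at day 4. The WT call did not hold with any 1 array of WT day 0 or array 2 or 3 of WT day 4 left out (adjusted p 0.057 to 0.0775). Atp5g3, with ERR letters in the stretch shown above, read 7.91, 7.98 and 7.94 on the WT day 0 arrays and 8.10, 8.04 and 8.25 on the WT day 4 arrays. In KO cells Atp5g3 read 8.001, 8.08 and 8.16 on the day 0 arrays and 7.85, 7.84 and 7.74 on the day 4 arrays. KO day 4 arrays lay below all others. It fell in KO cells (-0.27 ± 0.079 SE, adjusted p = 0.0186), which did not hold with array 2 or 3 of KO day 0 or array 3 of KO day 4 left out (adjusted p 0.0504 to 0.0815), and was lower than in WT cells at day 4 (-0.32 ± 0.079 SE, adjusted p = 0.0119), which did not hold with array 3 of WT day 4 left out (adjusted p = 0.0554). Atp5g1 read 5.43, 5.16 and 5.13 on the WT day 0 arrays and 4.45, 4.95 and 5.07 on the WT day 4 arrays. In KO cells Atp5g1 read 5.21, 4.93 and 5.17 on the day 0 arrays and 5.02, 4.46 and 4.59 on the day 4 arrays. Its spread within groups was the largest of the 3, and changes of -0.42 in WT cells and -0.41 in KO cells did not pass (adjusted p = 0.108 and 0.0936).

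Of the catalytic head, Atp5a1, the alpha subunit, read 10.45, 10.42 and 10.46 on the WT day 0 arrays and 10.71, 10.67 and 10.88 on the WT day 4 arrays. In KO cells Atp5a1 read 10.50, 10.56 and 10.54 on the day 0 arrays and 10.57, 10.48 and 10.54 on the day 4 arrays. WT day 4 arrays lay above all others, and the KO arrays of both days overlapped. Atp5a1 rose in WT cells (0.31 ± 0.0739 SE, adjusted p = 0.00832), while the KO change was 0.00 (95% interval -0.16 to 0.16). At day 4 it was lower in KO than in WT cells (-0.22 ± 0.0739 SE, adjusted p = 0.0479), a call that did not hold with any 1 array of WT day 0, array 3 of WT day 4, any 1 array of KO day 0 or any 1 array of KO day 4 left out (adjusted p 0.0616 to 0.183). Quantile normalization, centring on array medians, array weights, a replicate block and a fit to the day 4 arrays alone lost it too (adjusted p 0.0627 to 0.177). Atp5b, the catalytic beta subunit, read 12.22, 12.18 and 12.24 on the WT day 0 arrays and 12.12, 12.16 and 12.26 on the WT day 4 arrays. In KO cells Atp5b read 12.15, 12.13 and 12.21 on the day 0 arrays and 11.96, 11.95 and 11.97 on the day 4 arrays. The KO day 4 values lay close together and lowest. Atp5b fell in KO cells (-0.20 ± 0.0669 SE, adjusted p = 0.0349) and was lower than in WT cells at day 4 (-0.22 ± 0.0669 SE, adjusted p = 0.0336). The first of these did not hold with array 1 of WT day 0, any 1 array of KO day 0 or any 1 array of KO day 4 left out (adjusted p 0.0504 to 0.118), and the second did not hold with array 1 of WT day 0, array 2 or 3 of WT day 4 or any 1 array of KO day 4 left out (adjusted p 0.0501 to 0.124). Atp5c1, the gamma subunit of the central shaft, read 5.56, 5.42 and 5.45 on the WT day 0 arrays and 5.79, 5.76 and 5.89 on the WT day 4 arrays. In KO cells Atp5c1 read 5.47, 5.52 and 5.48 on the day 0 arrays and 5.71, 5.61 and 5.72 on the day 4 arrays. In both genotypes its day 4 arrays lay above its day 0 arrays, and it rose in WT cells (0.34 ± 0.0723 SE, adjusted p = 0.00416) but did not pass in KO cells (0.19, adjusted p = 0.0654). Atp5e, the epsilon subunit of the shaft, was lower in KO than in WT cells at day 4 (-0.48 ± 0.108 SE, adjusted p = 0.00814), with the day 4 arrays of the genotypes apart (7.87, 7.87 and 8.17 in WT and 7.53, 7.64 and 7.32 in KO cells). That call did not hold with the day 4 arrays fitted alone (adjusted p = 0.0543), and its other probe set gave -0.19 (adjusted p = 0.0995 over all probe sets). Atp5d, the delta subunit, differed by -0.18 (adjusted p = 0.0816).

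Of the stalk and membrane subunits, Atp5j, the coupling factor of the outer stalk, read 7.90, 7.80 and 7.99 on the WT day 0 arrays and 7.90, 7.89 and 7.91 on the WT day 4 arrays. In KO cells Atp5j read 7.78, 7.83 and 7.83 on the day 0 arrays and 7.58, 7.60 and 7.55 on the day 4 arrays. The 3 KO day 4 values lay below all others. Atp5j fell in KO cells (-0.24 ± 0.0695 SE, adjusted p = 0.0199), which did not hold with array 2 or 3 of KO day 0 or array 3 of KO day 4 left out (adjusted p 0.0574 to 0.0619), and was lower than in WT cells at day 4 (-0.32 ± 0.0695 SE, adjusted p = 0.00608), which held under every alternative tried. Atp5l, the membrane subunit g, fell in KO cells (-0.31 ± 0.0954 SE, adjusted p = 0.0247) and was lower than in WT cells at day 4 (-0.29 ± 0.0954 SE, adjusted p = 0.0473). Its KO call did not hold with any 1 array of KO day 0 or array 2 of KO day 4 left out (adjusted p 0.0607 to 0.0827), and its day 4 call did not hold with any 1 array of WT day 0, array 2 or 3 of WT day 4, any 1 array of KO day 0 or array 1 or 2 of KO day 4 left out (adjusted p 0.0608 to 0.149). Atp5pb, the stalk subunit b, and Atp5md, a small membrane subunit, fell in KO cells (-0.30 and -0.22, adjusted p = 0.0251 and 0.0344) without a day 4 difference past the threshold (-0.07 and -0.03). Atp5pb did not hold with array 2 or 3 of KO day 0 or array 1 of KO day 4 left out (adjusted p 0.0541 to 0.109), and Atp5md did not hold with any 1 array of KO day 0 or array 1 or 3 of KO day 4 left out (adjusted p 0.0543 to 0.102). Atp5h, Atp5j2, Atp5k, Atp5mpl and Atp5o passed in no comparison. Of these, Atp5k, the membrane subunit e, had KO values below WT values at both days (-0.20 and -0.21, adjusted p = 0.253 and 0.109), and Atp5o, which links the head to the outer stalk, varied from -0.18 to -0.03 over the KO and WT changes with an SE of 0.168. The inhibitor of the ATP synthase, Atpif1, passed in no comparison (-0.16 at day 4, adjusted p = 0.17).

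Whether the change by day 4 itself differed between the genotypes was tested as KO change minus WT change. For 4 members it did, where 3.95% of all genes passed, 2.15% higher and 1.81% lower. Cox4i2 changed more upward in KO cells (1.15 ± 0.221 SE, adjusted p = 0.0147), and Uqcrq (-0.57 ± 0.112 SE, adjusted p = 0.0153), Cyc1 (-0.44 ± 0.112 SE, adjusted p = 0.0447) and Atp5g3 (-0.46 ± 0.112 SE, adjusted p = 0.0375) changed more downward. Cox4i2 and Uqcrq passed under every alternative tried that kept the threshold. At an adjusted p under 0.01, no member passed for this difference, against 0.947% of all genes. At that threshold 12 members passed between the genotypes at day 4 (10.4% of all genes) and 0 at day 0 (2.84%). By day 4, 6 passed in WT cells (14.8% of all genes) and 8 in KO cells (20.6%). Cyc1 did not pass with any 1 array of WT day 0, array 2 or 3 of WT day 4, any 1 array of KO day 0 or array 1 or 2 of KO day 4 left out (adjusted p 0.0521 to 0.117), and Atp5g3 did not pass with any 1 array of WT day 0, array 3 of WT day 4, any 1 array of KO day 0 or array 1 or 3 of KO day 4 left out (adjusted p 0.0585 to 0.101). The median over the members was -0.15 against -0.01 over all genes, and 12 of 47 values were above 0. Sdhb, Cox4i1 and Cox6a2 lay close to the threshold (-0.40, -0.38 and 0.51, adjusted p = 0.0571, 0.0556 and 0.0587), so for these a change in 1 genotype only was not shown.

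**Figure D5:**
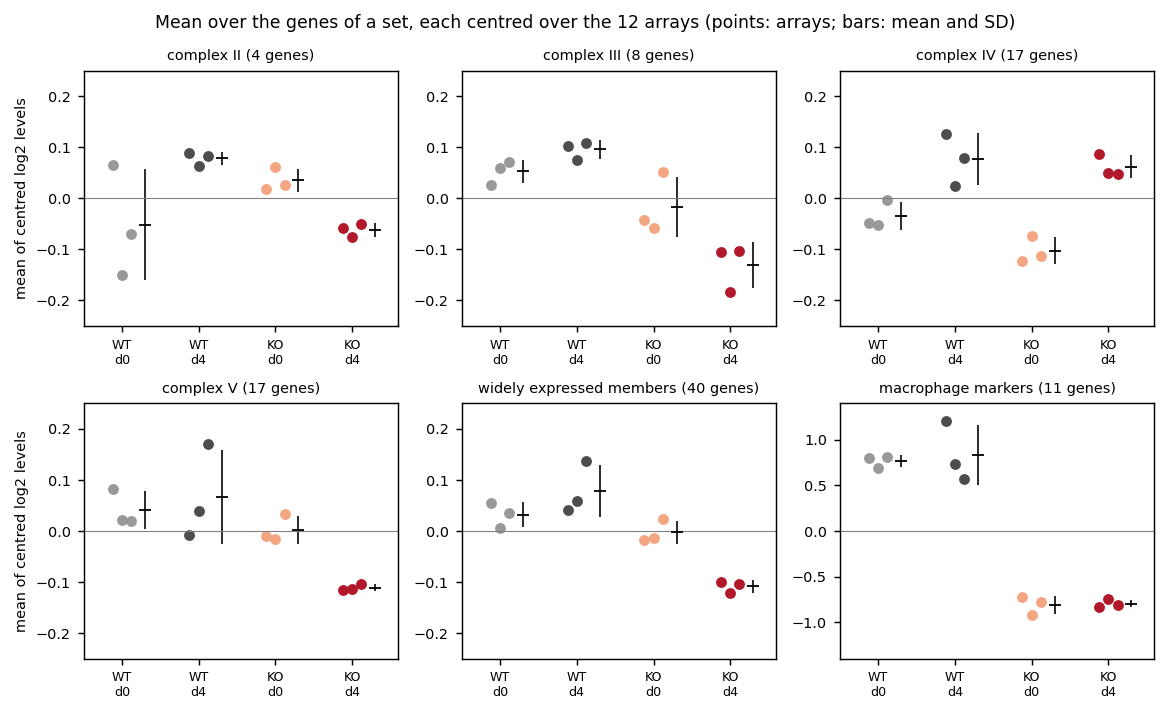
Mean over the genes of each complex, over the 40 members without tissue-restricted isoforms and over 11 macrophage markers on each array, every gene centred over the 12 arrays, with group mean and SD as bars and a wider y axis for the macrophage panel. For the 40 members the KO day 4 arrays lie at -0.12 to -0.10 and the WT day 4 arrays at 0.04 to 0.14, while macrophage markers are at -0.92 to -0.73 and -0.83 to -0.75 on KO day 0 and KO day 4 arrays.

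Leaving out the 7 isoforms restricted to muscle, lung or testis, 18 of 40 members were lower in KO than in WT cells at day 4 and 1, Cox7a2l, was higher, with a median difference of -0.20. These were 45% and 2.5%, against 12.4% and 8.34% of all genes. Among genes over the median level 21.8% were lower. Their mean centred level was 0.03 ± 0.0252 (SD, n = 3) on WT day 0 arrays, 0.08 ± 0.0507 on WT day 4 arrays, 0.00 ± 0.0227 on KO day 0 arrays and -0.11 ± 0.0121 on KO day 4 arrays. The KO day 4 arrays lay below the other 9. By complex, the KO day 4 arrays lay below all others for complex III, cytochrome c and complex V, whereas in complex II they overlapped the WT day 0 arrays. In complex IV, where Cox4i2 and Cox6b2 are included, the KO and WT day 4 arrays overlapped (0.05 to 0.09 against 0.02 to 0.13).

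Subunits encoded by mitochondrial DNA were measured for 3 of 6 genes, CYTB of complex III and COX1 and COX3 of complex IV. COX1, the catalytic subunit with the oxygen site, read 12.57, 12.60 and 12.64 on the WT day 0 arrays and 12.75, 12.73 and 12.74 on the WT day 4 arrays. In KO cells COX1 read 12.66, 12.68 and 12.69 on the day 0 arrays and 12.95, 12.92 and 12.89 on the day 4 arrays. In KO cells it rose (0.24 ± 0.0629 SE, adjusted p = 0.0106), its WT change was 0.14 (adjusted p = 0.156), and the day 4 difference was 0.18 (adjusted p = 0.0626). COX3 rose in WT cells (0.23 ± 0.0686 SE, adjusted p = 0.0272) and in KO cells (0.24 ± 0.0686 SE, adjusted p = 0.017). CYTB passed in no comparison. None of the 3 was lower in KO cells at day 4.

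Assembly factors, which insert hemes, copper and subunits, were measured for 38 genes. At day 4, 12 were lower in KO than in WT cells and 4 higher, 31.6% and 10.5% against the 12.4% and 8.34% of all genes. Among genes over the median level, where most of the assembly factors lie, 21.8% were lower. The smallest p-values were those of Lyrm7, a chaperone of the Rieske protein of complex III, higher by 0.96 ± 0.0949 (SE), Cox10, which makes the heme of complex IV, lower (-0.82 ± 0.0926), Coa7 of complex IV, lower (-0.75 ± 0.108), and Lrpprc, which steadies mitochondrial mRNAs, lower (-0.45 ± 0.0789). Their adjusted p-values were 6.45e-05, 0.000138, 0.00054 and 0.00197. Cox10 read 7.66, 7.72 and 7.59 on the WT day 0 arrays and 7.11, 7.35 and 7.40 on the WT day 4 arrays. In KO cells Cox10 read 7.21, 7.32 and 7.28 on the day 0 arrays and 6.38, 6.41 and 6.60 on the day 4 arrays. WT day 0 arrays lay highest, KO day 4 arrays lowest, and WT day 4 and KO day 0 arrays overlapped between them. Cox10 was lower in KO cells already at day 0 (-0.39, adjusted p = 0.0267) and fell in both genotypes (-0.37 in WT and -0.81 in KO cells). Lyrm7 was higher in KO cells at day 0 (0.43), and its change differed between the genotypes (0.54 ± 0.134 SE, adjusted p = 0.0435), the only assembly factor for which it did. By day 4, 4 assembly factors rose and 4 fell in WT cells, 10.5% each, near the 11.1% and 11.7% of all genes. In KO cells 6 rose and 10 fell, 15.8% and 26.3% against 13.8% and 16.9% of all genes. Among genes over the median level 29.1% fell, a larger share than that of the assembly factors. Cox18, which inserts a mitochondrially made subunit of complex IV into the membrane, fell in WT cells (-0.58 ± 0.0804 SE, adjusted p = 0.000184) and in KO cells (-0.62 ± 0.0804 SE, adjusted p = 7.95e-05). Cmc1, a partner of newly made COX1, rose in both (0.57 ± 0.129 in WT and 1.03 ± 0.129 in KO cells).

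Regulators of respiratory gene transcription were measured for 12 genes. Tfb1m, a methylase of mitochondrial ribosomal RNA, rose in WT cells (0.77 ± 0.0739 SE, adjusted p = 1.1e-05) and in KO cells (0.86 ± 0.0739 SE, adjusted p = 3.8e-06). Pprc1, a coactivator related to PGC-1, read 7.97, 7.93 and 8.09 on the WT day 0 arrays and 7.36, 7.54 and 7.71 on the WT day 4 arrays. In KO cells Pprc1 read 7.87, 7.83 and 7.83 on the day 0 arrays and 7.02, 7.25 and 6.95 on the day 4 arrays. The day 4 arrays lay below the day 0 arrays in both genotypes, and the KO day 4 arrays lowest. Pprc1 fell in WT cells (-0.46 ± 0.101 SE, adjusted p = 0.00476) and in KO cells (-0.77 ± 0.101 SE, adjusted p = 8.71e-05) and was lower in KO than in WT cells at day 4 (-0.46 ± 0.101 SE, adjusted p = 0.00667). Polrmt, the RNA polymerase of mitochondria, fell in KO cells (-0.38, adjusted p = 0.00464) and was lower than in WT cells at day 4 (-0.37, adjusted p = 0.00919). The other 9, among them Nrf1, Gabpa, Esrra and Yy1, whose motifs were searched above, passed in no comparison.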

How the data were processed

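RNA of mouse embryonic fibroblasts was measured on 12 one-colour arrays, 3 in each of 4 groups taken from the sample titles. The authors' deposited values are log2 probe-set levels (1.33 to 13.35), made with Affymetrix Expression Console per the submitters' processing notes; neither its version nor the normalization is stated there, and no further scaling was applied. Probe sets were named through GEO's platform annotation, and all 47 members matched RefSeq. With limma 3.58.1 in R 4.3.3, a model of 4 group means was fitted to 12 arrays and 22180 genes (8 residual and 4.56 prior degrees of freedom), without a filter on low levels. The 2-sided moderated tests, checked on simulated data, were adjusted over all genes per comparison. Arrays give no counts, and their number limits the precision. Values in every array are given for up to 8 called members with the smallest p in each comparison, the Sdh and Atp5g genes, Cycs and the complex IV paralogs, and for some further members picked after their values were seen. The members and all gene lists were chosen with earlier results of these data known. The table held 0 columns of other samples. Alternatives were another scaling, a low-level filter, averaged probe sets, another prior, array weights, a block for the replicate number, fits to the compared groups alone, a stricter threshold and each array left out. Leaving out both arrays that stood apart was chosen after seeing the data.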

Additional observations from a re-analysis of the deposited data

Results flagged for a closer look

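For 4 members the change from day 0 to day 4 differed between the genotypes by limma's test of the difference itself (adjusted p over 22180 genes). Cox4i2 changed by 1.15 more on the log2 scale in KO than in WT cells (adjusted p = 0.0147), the only one of the 4 in which the KO change was the more positive. Uqcrq, with -0.57 (adjusted p = 0.0153), fell in both genotypes and further in KO cells. Cyc1, with -0.44 (adjusted p = 0.0447), and Atp5g3, with -0.46 (adjusted p = 0.0375), fell in KO cells and did not pass in WT cells. Groups of 3 arrays were not tested for outlying values.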

How the results depend on the processing

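The alternatives that kept the threshold of 0.05 gave 4878 values for single members. Of these, 4614 kept their side of the threshold without reversing a call, 198 lost a call, 66 gained one and 0 reversed a call. Among the 4614, 130 changed sign while past the threshold in neither fit. In WT cells 6 of 9 calls held in every one of these alternatives, in KO cells 9 of 21, at day 0 0 of 1, at day 4 10 of 21, and in the difference of changes 2 of 4. Where a call is said above to be lost with single arrays left out, other alternatives may have lost it too. At an adjusted p under 0.01, 8 members passed in KO cells, 0 at day 0, 12 at day 4 and 0 in the difference of changes. A fit to the compared groups alone left 10 at day 4, and leaving out the tissue-restricted isoforms left 0 at day 0. The difference of changes gave 7 calls with array weights, with WT day 4 array 1 and KO day 4 array 2 left out, and with genes under the 25th percentile left out, 2 with quantile normalization and 8 with a trended robust prior. With each array left out in turn the calls ranged from 6 to 9 in WT cells, 11 to 23 in KO cells, 0 to 1 at day 0, 15 to 22 at day 4 and 2 to 6 in the difference of changes. With the replicate number as a block the counts were 9, 17, 1, 18 and 3. Of 18 same-numbered pairs of arrays 2 correlated over 0.1 (-0.06 to 0.18), and these 2 joined WT day 4 with KO day 4 arrays. Day 4 arrays of unlike numbers from the 2 genotypes correlated at -0.20 to 0.12. The numbers were not taken as pairs. Signal near the floor limits Cox7b2 and Cox8c, low signal limits Cox8b, and 3 arrays per group limit all members.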
